A study of Mus musculus with 22 samples.

Results

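The genes followed here encode the angiopoietin receptor Tek and its relative Tie1, the VEGF receptors Kdr, Flt1 and Flt4, the endothelial junction proteins Cdh5, Pecam1 and Cldn5, and the transcription factors Sox7 and Sox18. They are 10 of the 37680 gene IDs in the deposited expected-count table, and were taken by symbol, as the IDs that map to these names. No measured value entered that rule, but the genes were chosen with earlier results of these data known. All 10 passed the filter on low counts in every comparison below.

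RNA was sequenced from 22 pools of whole C57BL/6 mouse embryos carrying a doxycycline-inducible transgene for Oct4 (gene Pou5f1) or Nanog, factors of the pluripotent state. Oct4 pools had the genotype ROSA26tg/+; Oct4tg/+ and Nanog pools ROSA26tg/+; Nanogtg/+, in induced and control pools alike. At E9.5 there were 3 induced and 3 control pools of the Oct4 line, and 3 induced and 2 control pools of the Nanog line, each of 3 embryos. At E7.5 the numbers of pools were the same, with 8 to 12 embryos in each. Mothers of induced E9.5 pools drank doxycycline from E6.5, and mothers of induced E7.5 pools were injected with it at E4.5 and then drank it. Control pools carried the transgenes and got no doxycycline. No group had doxycycline without a transgene, so the drug and the transgene cannot be told apart, and the age of the embryos is the stage itself. Nothing in the labels says that pools of a group came from separate litters, so p-values measure the spread between pools.

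Endothelial cells line blood vessels and arise from mesoderm, first in the yolk sac beside primitive blood and then in the embryo. VEGF ligands act through Kdr, the main signalling receptor of early vessel formation, while Flt1 also acts as a decoy that binds VEGF, and Flt4 is the receptor of Vegfc. Angiopoietins act through Tek, with Tie1 as an orphan partner, on vessel stability. Cdh5 (VE-cadherin), Pecam1 (CD31) and Cldn5 hold endothelial cells to each other, and the SOX factors Sox7 and Sox18 control endothelial genes. Sox7 is also known from extraembryonic endoderm, Flt1 and Pecam1 from trophoblast and early embryonic cells, and Kdr from lateral mesoderm, so not every read of these genes in a whole embryo need come from vessels.

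The promoters of Tek, Tie1 and Kdr are shown because the receptors Tek and Tie1 fell together at E7.5 with Oct4 while Kdr did not pass the test. Each is the stretch of 250 bases before the gene's start in RefSeq (build GRCm38.p6), printed on the gene's strand. Capitals mark matches of the motifs searched, on either strand. The Tek window is chr4:94739039-94739288 (+), the Tie1 window chr4:118489850-118490099 (-) and the Kdr window chr5:75978456-75978705 (-).
Tek: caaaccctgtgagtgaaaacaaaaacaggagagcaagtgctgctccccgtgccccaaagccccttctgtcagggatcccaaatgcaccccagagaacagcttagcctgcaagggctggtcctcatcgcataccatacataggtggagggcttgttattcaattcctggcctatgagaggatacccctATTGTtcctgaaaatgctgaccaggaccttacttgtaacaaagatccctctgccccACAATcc
Tie1: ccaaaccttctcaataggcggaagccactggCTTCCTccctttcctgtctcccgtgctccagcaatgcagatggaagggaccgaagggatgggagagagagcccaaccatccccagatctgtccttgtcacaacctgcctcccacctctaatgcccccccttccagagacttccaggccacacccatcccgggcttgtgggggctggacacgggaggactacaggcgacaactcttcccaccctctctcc
Kdr: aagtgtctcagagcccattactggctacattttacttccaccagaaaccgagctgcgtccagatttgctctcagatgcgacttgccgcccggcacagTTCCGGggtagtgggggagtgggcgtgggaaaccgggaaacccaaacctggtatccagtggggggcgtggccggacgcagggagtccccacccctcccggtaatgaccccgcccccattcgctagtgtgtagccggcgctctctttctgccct
Tek held ACAAT, a core of SOX sites, at 2 places, a match found in 27.7% of the 32851 promoter windows of the table. Tie1 held AGGAAG, a core of ETS sites, once, in reverse; 29.5% of windows held it, among them also that of Flt1. Kdr held another ETS core, CCGGAA, once, against 12.0% of windows. The windows of the 6 members found in the table (also Flt1, Flt4 and Cldn5; Cdh5, Pecam1, Sox7 and Sox18 are named only) held no match to the FOX and ETS composite AACAGGAA, which contains AGGAA of AGGAAG, to the GATA core AGATAA or to the Oct4 octamer ATGCAAAT. These motifs were in 2.25%, 9.99% and 1.6% of all windows. GC content was 51.2% for Tek, 60.4% for Tie1 and 61.6% for Kdr, against a median of 52.4% over all windows.

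On the build of the counts (NCBIM37), the genes lie on chr4 from 94405980 to 94541667 (Tek) and 118143796 to 118162666 (Tie1), chr5 from 76328852 to 76374483 (Kdr) and 148373180 to 148537587 (Flt1), chr11 from 49422765 to 49466241 (Flt4) and 106515531 to 106611942 (Pecam1), chr8 from 106625525 to 106668402 (Cdh5), chr16 from 18776940 to 18778353 (Cldn5), chr14 from 64562511 to 64569569 (Sox7) and chr2 from 181404541 to 181406345 (Sox18). All are protein-coding, and the values are sums over their exons. No exon of a member overlaps another gene in the annotation. Exonic lengths run from 1.414 kb in Cldn5 to 11.583 kb in Flt1.

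Libraries held between 4716147 and 42323659 counts, and all 220 values of the members were above 3 counts, the limit that a count of 0 allows. Cldn5 was the least covered, at 6 counts in pool 4 of the induced Nanog E7.5 group. Levels are CPM, counts relative to library size after TMM scaling, a correction for library composition, and n is the number of pools. Pou5f1 checked the Oct4 labels, with 249 ± 12.7 CPM in induced and 0.822 ± 0.411 CPM in control pools at E9.5 (SD, n = 3 each), and 603 ± 74.5 CPM in induced and 233 ± 18.9 CPM in control pools at E7.5 (SD, n = 3 each). Nanog had 328 ± 1.96 CPM in induced (n = 3) and 2.14 ± 0.212 CPM in control pools (n = 2) of its line at E9.5. At E7.5 it had 96.1 ± 34.5 CPM in induced (n = 3) and 20.3 ± 4.1 CPM in control pools (n = 2), an adjusted p of 0.0752 in edgeR. At E7.5 these genes do not mark 1 line each: Pou5f1 was also higher in the Nanog line, at 552 ± 70.2 CPM in induced (n = 3) and 236 ± 17.2 CPM in control pools (n = 2; log2 fold change 1.22 ± 0.12, edgeR adjusted p = 0.000955), beside 1.38 ± 0.11 in the Oct4 line. Nanog was higher in the Oct4 line as well, at 30.1 ± 4.99 CPM in induced and 19.7 ± 1.64 CPM in control pools (SD, n = 3 each; 0.62 ± 0.13, edgeR adjusted p = 0.0272). A property of the libraries split them apart from the labels: gene models shorter than 80 nucleotides summed to 0.575 to 1.13 CPM in the induced Nanog E7.5 pools and to 0.634 to 2.02 CPM in all E9.5 pools, but to 29 to 51.9 CPM in the Oct4 E7.5 pools and the Nanog E7.5 controls. In the Nanog E7.5 comparison and in both comparisons of stages, what gave these libraries that property cannot be told apart from the groups.

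Between the stages, most members were higher in E9.5 than in E7.5 control embryos, Tie1 by the widest margin, whereas Sox7 was lower and Flt1 did not pass the test. In the Oct4 line 8 members were higher at E9.5 and 1 was lower, where 73.5% of the 15770 genes tested were called, 36.5% higher and 37.1% lower. In the Nanog line 7 were higher and 1 lower, with 63.8% of 14872 genes called, 31.8% higher and 32.0% lower. Pools of the stages did not overlap for 8 higher members and Sox7 in each line. All genes tested showed that for 39.4% on the higher and 37.9% on the lower side in the Oct4 line, and for 41.9% and 41.0% in the Nanog line. The members' median log2 difference was 1.5 in the Oct4 line and 1.08 in the Nanog line, against -0.02 and 0.01 over all genes tested. In bulk RNA such as this, more cells of a type and more RNA per cell cannot be told apart.

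Of the angiopoietin receptors, Tie1 had 34.1, 37.3 and 38.0 CPM in Oct4 line controls at E9.5, against 3.46, 3.19 and 3.38 CPM at E7.5, a log2 difference of 3.43 ± 0.10 (SE, edgeR adjusted p = 4.89e-10). Tek had 34.8, 30.3 and 36.5 CPM at E9.5 against 12.6, 13.3 and 13 CPM at E7.5 (1.36 ± 0.09, adjusted p = 1.99e-07). Both were apart at the stages, and their balance changed. Per kb of exons, Tie1 stood at 1.04 times Tek at E9.5 (0.941 to 1.18 over 3 pools), against 0.248 times at E7.5 (0.229 to 0.264). In the Nanog line controls the ratio was 0.791 and 0.902 at E9.5, against 0.293 and 0.366 at E7.5, and Tie1 differed by 2.44 ± 0.16 and Tek by 1.12 ± 0.14 on the log2 scale.

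Among the VEGF receptors, Flt4 was higher at E9.5 by 1.82 ± 0.12 on the log2 scale in the Oct4 line (adjusted p = 1.31e-07) and by 1.23 ± 0.14 in the Nanog line (adjusted p = 3.81e-06). Kdr was higher by 0.68 ± 0.13 in the Oct4 line (adjusted p = 0.00171) and by 0.23 ± 0.07 in the Nanog line (adjusted p = 0.0138), a call lost without E7.5 control 2 (adjusted p = 0.0591), E7.5 control 3 (0.056) or E9.5 control 2 (0.18). Here and below, leaving out a Nanog line control leaves 1 pool in its arm, which is assumed to vary like the other groups. Flt1 had a log2 difference of 0.15, with a 95% interval of -0.04 to 0.34, in the Oct4 line, and of -0.14, interval -0.37 to 0.09, in the Nanog line. The interval of each excludes a change of the size seen for Flt4.

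Among the junction genes, Cldn5, a claudin of tight junctions, had 15.6, 15.2 and 18.0 CPM in Oct4 line controls at E9.5, against 2.14, 1.68 and 2.27 CPM at E7.5 (log2 difference 2.98 ± 0.16, adjusted p = 3.3e-08). Cdh5 had 65, 63.8 and 70.5 CPM at E9.5 against 13.2, 19.0 and 10.2 CPM at E7.5 (2.21 ± 0.22, adjusted p = 0.000166), and Pecam1 was higher by 1.27 ± 0.09 (adjusted p = 2.9e-07). No pool of either stage reached into the other's range. In the Nanog line Cldn5 was higher by 2.12 ± 0.23 and Pecam1 by 1.04 ± 0.16, while Cdh5 did not pass (1.46 ± 0.58, adjusted p = 0.158), its E9.5 controls at 75.1 and 69.7 CPM and its E7.5 controls at 12.3 and 37.8 CPM. With an E7.5 control left out the difference was 0.93 (without control 2, adjusted p = 3.37e-05) or 2.55 (without control 3, adjusted p = 4.73e-07), calls in which no spread between E7.5 pools enters.

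The SOX factors went opposite ways. Sox18 had 11.9, 10.8 and 11.5 CPM in Oct4 line controls at E9.5 against 4.46, 3.19 and 3.12 CPM at E7.5 (log2 difference 1.65 ± 0.17, adjusted p = 5.28e-06). Sox7 had 9.66, 8.11 and 9.30 CPM at E9.5 against 16.0, 13.8 and 11.7 CPM at E7.5 and fell by 0.64 on the log2 scale (SE 0.14, adjusted p = 0.00168). Per kb, Sox7 stood at 0.389 times Sox18 at E9.5, against 1.91 times at E7.5. In Nanog line controls Sox18 was higher by 0.77 ± 0.23 (adjusted p = 0.011) and Sox7 fell by 0.45 (SE 0.16, adjusted p = 0.0284). The Sox18 call was lost without E7.5 control 3 (0.0769) or E9.5 control 2 (0.0759), and that of Sox7 without E7.5 control 2 (0.067), E7.5 control 3 (0.0927) or E9.5 control 3 (0.226).

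Ordered by level per kb of exons, Cdh5 led the members in E9.5 controls, at 16.7 ± 0.888 CPM per kb in the Oct4 line and 18.2 ± 0.957 in the Nanog line, and Kdr followed at 12.1 ± 1.08 and 12.5 ± 1.04. Flt1 was last, at 2.54 ± 0.202 and 2.88 ± 0.356. Its pools overlapped those of Sox7 just above it in the Oct4 line and those of Flt4 in the Nanog line. In E7.5 controls Kdr led, at 7.43 ± 1.36 CPM per kb in the Oct4 line and 10.6 ± 0.0555 in the Nanog line, apart from the next gene in each. Tie1 was last at 0.679 ± 0.0287 and 1.08 ± 0.24. Tie1, Tek, Sox18 and Pecam1 stood between 6.87 and 7.42 CPM per kb in Oct4 line E9.5 controls, each overlapping its neighbour in that order.

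**Figure D1:**
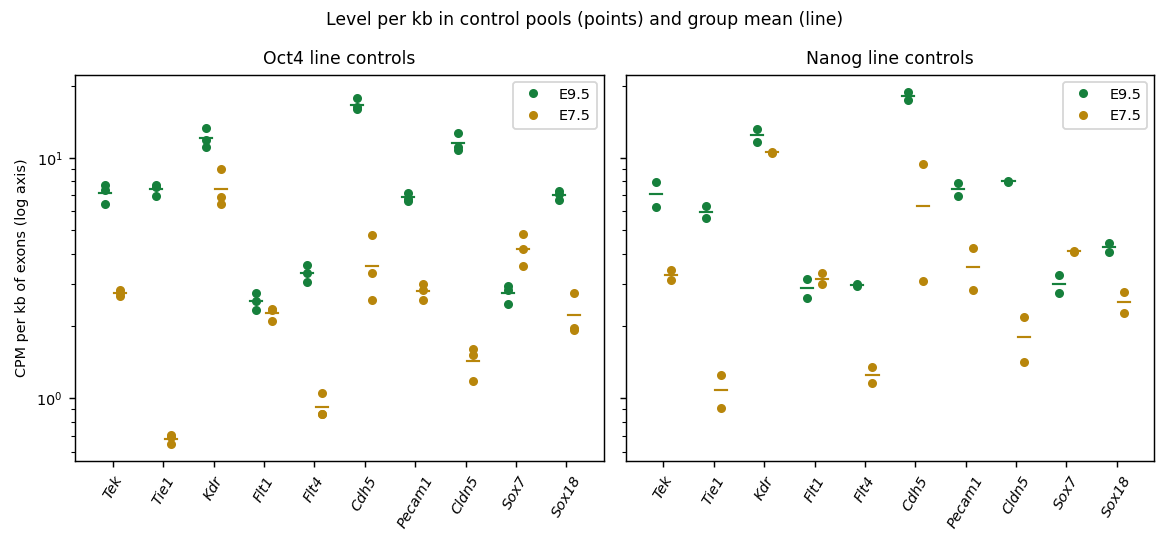
Level per kb of exons (CPM per kb, log axis) of the 10 genes in control pools of the Oct4 line (left) and the Nanog line (right), at E9.5 (green) and E7.5 (gold); points are pools and lines are group means. Tie1 stands lowest at E7.5 and near Tek at E9.5, and Sox7 is the gene whose E9.5 pools lie below its E7.5 pools in both lines.

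With Oct4 at E7.5, 6 members fell, Tek, Tie1, Cdh5, Pecam1, Cldn5 and Sox18, by 2.82-fold (Cldn5) to 3.67-fold (Sox18). None was higher. Of the 16071 genes tested 6.17% were called, 3.91% lower and 2.25% higher. The median log2 fold change was -1.51 over the 10 members and 0.02 over all genes tested.

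Tek had 3.70, 3.54 and 3.97 CPM in induced Oct4 E7.5 pools, against 12.6, 13.3 and 13 CPM in controls, a fall of 3.45-fold (log2 fold change -1.79 ± 0.12 SE, edgeR adjusted p = 0.000226). Tie1 had 0.762, 1.35 and 1.13 CPM in induced pools, against 3.46, 3.19 and 3.38 CPM in controls (-1.63 ± 0.23, adjusted p = 0.00407). The groups of both receptors were well apart, and Tie1 stayed at 0.279 times Tek per kb in induced pools (0.197 to 0.366), against 0.248 times in controls.

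No VEGF receptor passed the test. Kdr had 62.4, 35.6 and 36.1 CPM in induced pools, against 65.4, 47.0 and 49.9 CPM in controls (log2 fold change -0.26, 95% interval -0.81 to 0.28, adjusted p = 0.671). Flt1 had 29.2, 25.9 and 22.6 CPM in induced pools, against 27.2, 24.2 and 27.1 CPM in controls (0.00, interval -0.27 to 0.26). Their groups overlapped. In both groups pool 1 was the highest for Kdr, and without induced pool 1 Kdr was called lower (-0.59, adjusted p = 0.0453). Flt4 had 4.73, 2.29 and 4.49 CPM in induced pools, against 8.67, 7.06 and 7.05 CPM in controls (-0.98 ± 0.26, adjusted p = 0.0633). Its groups did not overlap, a separation that 12.7% of genes tested showed in that direction, and DESeq2 called it lower (adjusted p = 0.00615).

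All junction genes fell. Cdh5 had 4.34, 4.70 and 5.15 CPM in induced pools, against 13.2, 19.0 and 10.2 CPM in controls (-1.58 ± 0.22, adjusted p = 0.00345). Pecam1 had 4.07, 4.15 and 4.32 CPM in induced pools, against 11.1, 12.9 and 12.1 CPM in controls (-1.52 ± 0.13, adjusted p = 0.000378). Cldn5 had 0.552, 0.901 and 0.698 CPM in induced pools, against 2.14, 1.68 and 2.27 CPM in controls (-1.50 ± 0.26, adjusted p = 0.0102). No group overlapped its control. The call of Cldn5 rested on single pools, with adjusted p = 0.0512 without control 1 and 0.0594 without control 3.

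The SOX factors parted again. Sox18 had 0.920, 1.03 and 0.960 CPM in induced pools, against 4.46, 3.19 and 3.12 CPM in controls, the lowest fold change of the 10 (-1.88 ± 0.22, adjusted p = 0.00176). Sox7 had 7.59, 12.4 and 12.1 CPM in induced pools, against 16.0, 13.8 and 11.7 CPM in controls (-0.37 ± 0.20, adjusted p = 0.402). Sox7 overlapped between the groups and Sox18 did not, and per kb Sox7 stood at 5.38 times Sox18 in induced pools (4.06 to 6.18), against 1.91 times in controls (1.76 to 2.13).

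**Figure D2:**
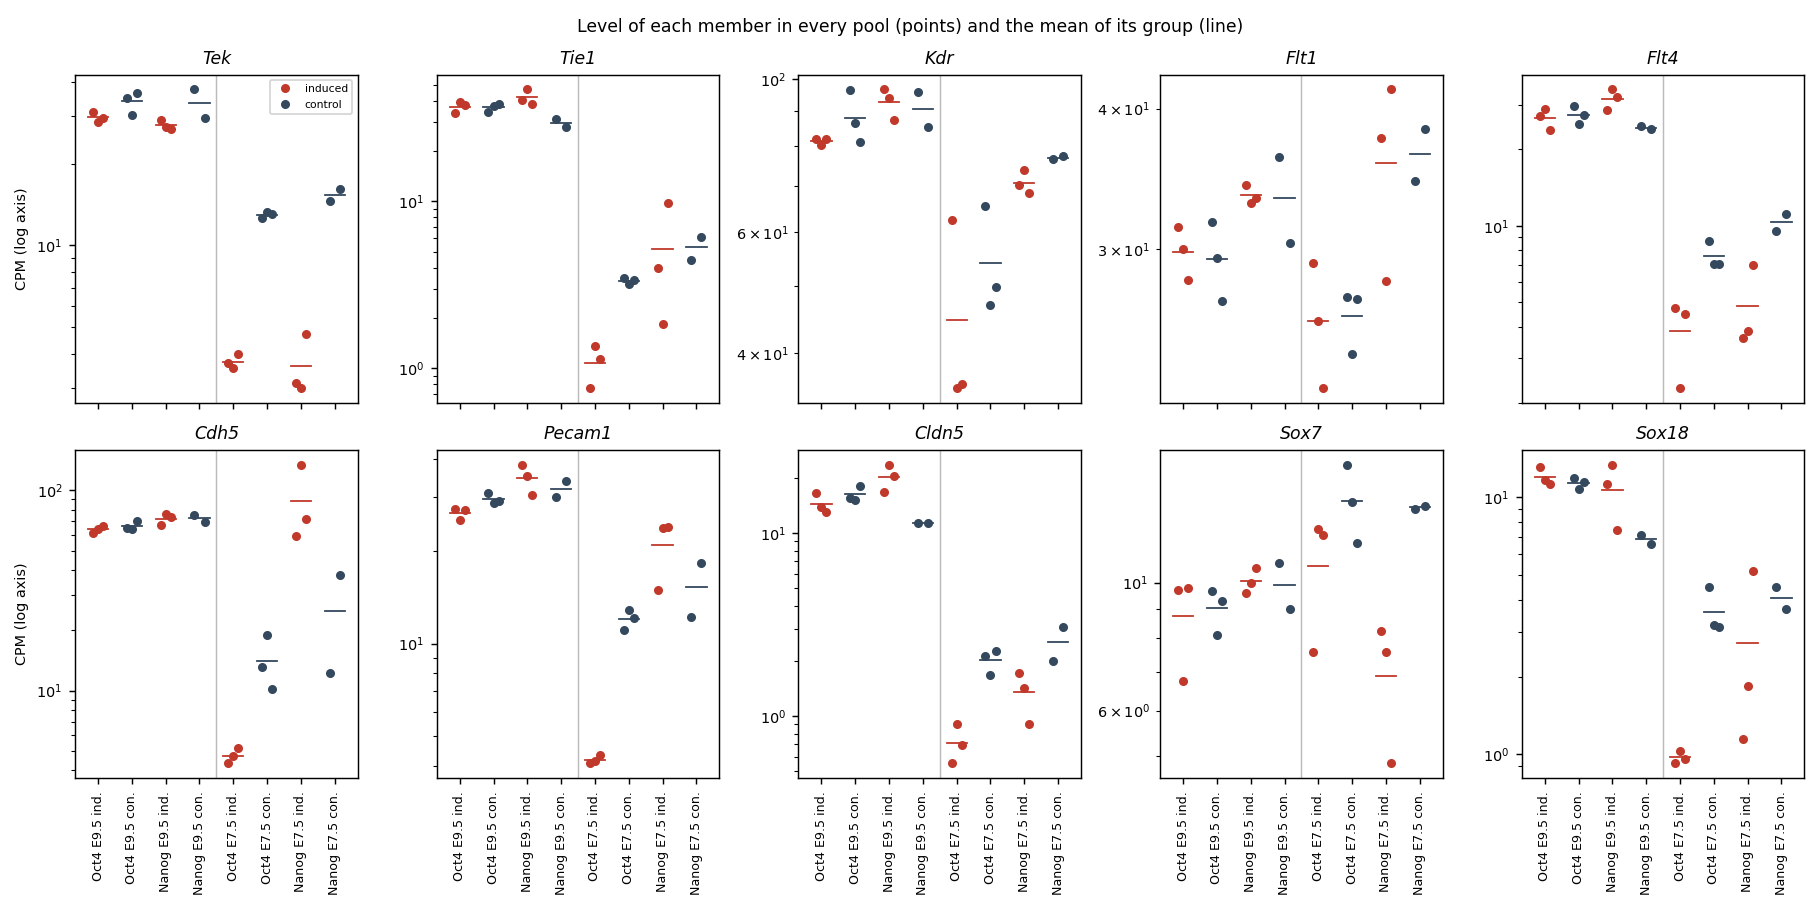
Level (CPM, log axis, a scale of its own for each gene) of the 10 genes in all 22 pools; points are pools, short lines are group means, induced groups (ind.) are red and stand left of their controls (con., dark), and the grey line parts E9.5 from E7.5. At E7.5 the induced Oct4 pools lie below all controls for Tek, Tie1, Flt4, Cdh5, Pecam1, Cldn5 and Sox18. At E9.5 the induced Nanog pools lie above their controls for Tie1, Flt4, Cldn5 and Sox18 and below them for Tek. In the Oct4 line at E9.5 Pecam1 is the gene whose induced and control pools do not overlap.

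With Nanog at E7.5 the members took different courses. Tek fell as with Oct4, Sox7 fell, Flt4 and Cldn5 were lower without passing the test, and Cdh5 stood higher on average than in any other of the 8 groups, without passing the test. In this comparison 2 members were called lower and none higher, where 7.78% of 14118 genes were called, 4.82% lower and 2.96% higher. The median log2 fold change was -0.42 over the members and 0.00 over all genes tested.

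Tek had 3.13, 2.99 and 4.71 CPM in induced Nanog E7.5 pools, against 14.6 and 16.1 CPM in controls, a fall of 4.4-fold (log2 fold change -2.14 ± 0.25, edgeR adjusted p = 0.00208). It was called in all 5 fits that left out a pool, with adjusted p up to 0.0325. Tie1 had 3.98, 1.84 and 9.72 CPM in induced pools, against 4.47 and 6.14 CPM in controls (-0.15, 95% interval -1.96 to 1.67, adjusted p = 0.93). Induced pool 4 was above both controls for Tie1 and the other induced pools below them. Per kb, Tie1 ran from 0.591 to 1.98 times Tek in induced pools, against 0.293 and 0.366 times in controls. Tek was lower than both controls in every induced pool.

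Kdr had 70.2, 73.9 and 68.3 CPM in induced pools, against 76.7 and 77.3 CPM in controls (-0.13, interval -0.33 to 0.07, adjusted p = 0.432). Flt1 had 37.7, 28.1 and 41.6 CPM in induced pools, against 34.5 and 38.4 CPM in controls (-0.05, interval -0.44 to 0.34). Kdr did not overlap, with the induced pools just below, as in 22.3% of all genes tested; Flt1 did. Flt4, the receptor of Vegfc, had 3.60, 3.84 and 6.99 CPM in induced pools, against 9.55 and 11.1 CPM in controls (-1.15 ± 0.31, adjusted p = 0.0545), and DESeq2 and limma-voom called it lower (adjusted p = 0.0343 and 0.022).

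Cdh5 had 58.9, 134 and 72.3 CPM in induced pools, against 12.3 and 37.8 CPM in controls (log2 fold change 1.80 ± 0.73, adjusted p = 0.275). All induced pools were above both controls, as in 22.3% of genes tested, but each group was wide. An edgeR model over all 22 libraries, which shares its estimate of spread with the other groups, called Cdh5 higher (adjusted p = 0.00502). Pecam1 had 15, 23.9 and 24.1 CPM in induced pools, against 12.2 and 18.3 CPM in controls (0.45 ± 0.26, adjusted p = 0.351), with overlap. Cldn5 had 1.71, 1.43 and 0.911 CPM in induced pools, against 2.0 and 3.07 CPM in controls (-0.89 ± 0.43, adjusted p = 0.242), with the induced pools below.

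Sox7 had 8.25, 7.57 and 4.86 CPM in induced pools, against 13.4 and 13.6 CPM in controls (-0.95 ± 0.24, adjusted p = 0.0453). Its groups were apart, but the call was lost without control 2 (adjusted p = 0.253), control 3 (0.244) or induced pool 3 (0.0812). Sox18 had 1.14, 1.84 and 5.16 CPM in induced pools, against 4.47 and 3.66 CPM in controls (-0.69 ± 0.59, adjusted p = 0.536). Induced pool 4 was again the one above both controls.

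**Figure D3:**
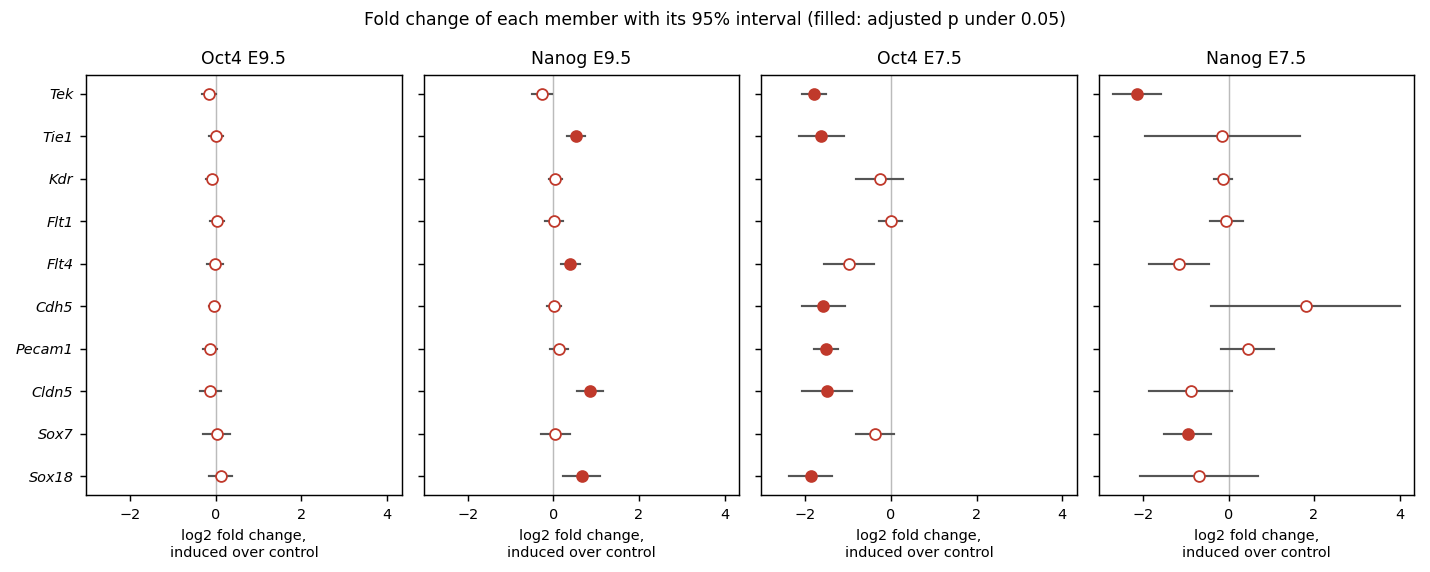
Log2 fold change (induced over control, horizontal axis) of the 10 genes in each induction, with 95% intervals as lines; filled points passed an adjusted p of 0.05 in edgeR. At E7.5 the filled points of both inductions lie left of 0, with Cdh5 to the right in the Nanog panel over a wide interval, and at E9.5 the filled points are Tie1, Flt4, Cldn5 and Sox18 to the right of 0 in the Nanog panel.

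The summed level of trophoblast markers, genes of the placental lineage, was higher in each induced Nanog E7.5 pool than in the controls. The 8 genes summed to 371, 544 and 485 CPM in induced pools 1, 3 and 4, against 204 and 322 CPM in controls 2 and 3. Of 6 tested markers 1 was called higher (Elf5, log2 fold change 1.47 ± 0.19, adjusted p = 0.00671) and none lower, while 2 of the 6 were lower in sign. Plac1 had 98.2, 141 and 140 CPM in induced pools, against 17.9 and 45.1 CPM in controls. Ascl2 had 26.8, 53.8 and 65.3 CPM in induced pools, against 11.7 and 24.4 CPM in controls. Both lay above the controls without being called. Without Hand1 the list summed to 281 to 378 CPM in induced and 58.3 to 161 CPM in control pools. Hand1 (90.4, 171 and 107 CPM in induced pools, against 146 and 161 CPM in controls) and Prl2c2 (3.13, 17.5 and 3.68 CPM in induced pools, against 0 and 20.2 CPM in controls) overlapped between the groups. Gcm1, which was not tested, was at 0.0948 to 0.288 CPM in induced pools and 0.462 and 0.805 CPM in controls. No marker was at 0 in every pool of either group. Mitochondrial genes took 5.27% to 8.26% of counts in induced pools and 3.3% to 3.63% in controls. Maternal leukocyte and decidua markers summed to 144, 300 and 74.2 CPM in induced pools, against 144 and 98.3 CPM in controls, highest in induced pool 3, where Cdh5 was highest too. The part of these in the values of the members was not tested.

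Prl3d1, a prolactin family hormone of trophoblast giant cells, was chosen from that list after its values were seen. Prl2c2, from the same cells, did not share its separation of induced Nanog E7.5 pools from controls. Within groups Prl2c2 kept the order of Prl3d1 in Nanog E7.5 controls and in Oct4 E7.5 controls (3.65, 22.8 and 1.56 CPM). The same held in induced Oct4 E7.5 pools (0.524, 0.877 and 0.748 CPM). In induced Nanog E7.5 pools Prl2c2 had the order of Cdh5 instead. Prl3d1 had 76.4, 92.4 and 74.5 CPM in induced Nanog E7.5 pools 1, 3 and 4, against 4.2 and 38.8 CPM in controls 2 and 3 (log2 fold change 1.87 ± 0.95, adjusted p = 0.361). Cdh5 had its lower control value in the control pool with the lower Prl3d1, and its highest induced value in the pool with the highest, but induced pools 1 and 4 had the opposite order, with 58.9 and 72.3 CPM of Cdh5. Among Oct4 E7.5 controls 1 to 3, Prl3d1 had 7.16, 39.9 and 2.96 CPM and Cdh5 13.2, 19.0 and 10.2 CPM, in the same order. In induced Oct4 E7.5 pools, where Cdh5 was at 4.34 to 5.15 CPM, Prl3d1 had 5.49, 6.16 and 5.67 CPM, inside the range of those controls, and in an order other than that of Cdh5. Whether any Cdh5 RNA came from trophoblast was not tested.

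**Figure D4:**
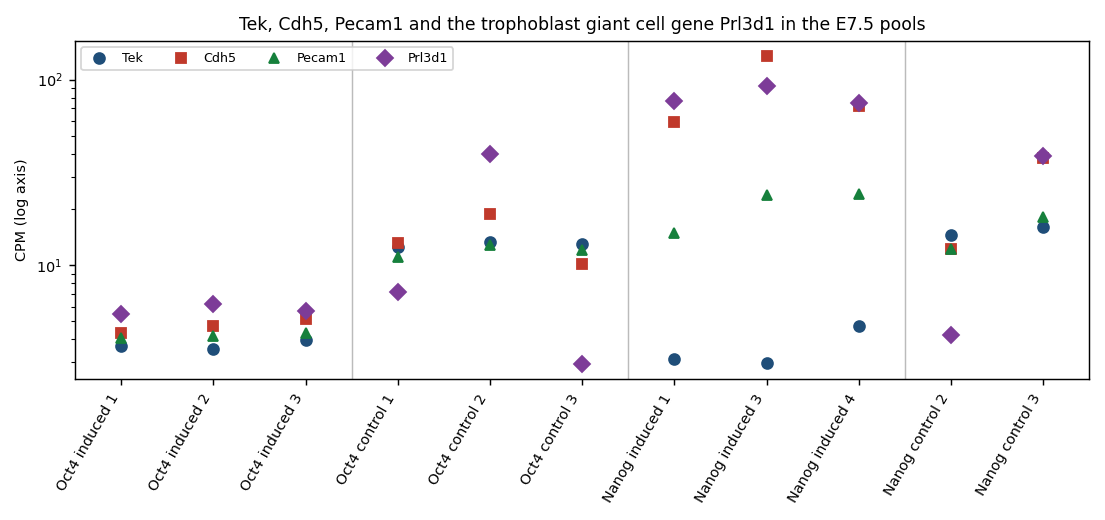
Level (CPM, log axis) of Tek, Cdh5, Pecam1 and the trophoblast giant cell gene Prl3d1 in each E7.5 pool, induced pools left of controls in each line. Prl3d1 and Cdh5 are both highest in the induced Nanog pools, where Tek lies between 2.99 and 4.71 CPM.

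Setting the inductions against each other at E7.5 (the log2 fold change with Oct4 minus that with Nanog), 1 member passed the test, and 0.204% of 16680 genes did. Pecam1 differed by -1.98 ± 0.29 (adjusted p = 0.014), from a fold change of -1.52 with Oct4 and 0.45 with Nanog. The difference was lost without Nanog control 2 (adjusted p = 0.0966). For Cdh5 the difference was larger but less certain, -3.39 ± 0.72 (adjusted p = 0.178), and DESeq2 called it (adjusted p = 0.000438). For Tek it was 0.35, with a 95% interval of -0.19 to 0.89 (adjusted p = 0.712). The short gene models and trophoblast sums given above run with the Nanog side of this contrast.

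At E9.5 Oct4 left no member called. In edgeR 0 of 10 passed, 0 had an unadjusted p under 0.05, and DESeq2 and limma-voom called 0, while edgeR called 9.29% of 13957 genes, 4.61% lower and 4.69% higher. Markers of other cell types did differ: red cell markers summed to 5930 to 7280 CPM in induced pools and 4260 to 5520 CPM in controls, with 4 of 12 tested called higher. Mesoderm markers summed to 269 to 282 CPM in induced pools and 209 to 231 CPM in controls, with 5 of 7 higher, and pericyte and smooth muscle markers to 309 to 318 CPM in induced pools and 248 to 285 CPM in controls, with 2 of 5 higher. Trophoblast markers summed to 36.5 to 41.0 CPM in induced pools and 15.8 to 26.4 CPM in controls, with 1 of 2 higher (Hand1). Hand1 made up most of these sums, and without it they overlapped, at 3.02 to 3.81 CPM in induced and 1.26 to 3.8 CPM in control pools. The part of these in the members' values was not tested. Fold changes lay between -0.16 and 0.11 on the log2 scale, with a median of -0.03 against 0.00 over all genes tested. Tek had 30.9, 28.5 and 29.4 CPM in induced pools 3 to 5, against 34.8, 30.3 and 36.5 CPM in controls 1 to 3 (-0.16, 95% interval -0.33 to 0.01). Tie1 had 33.7, 39.4 and 37.5 CPM in induced pools, against 34.1, 37.3 and 38.0 CPM in controls (0.01, interval -0.15 to 0.17). Pecam1 was the member whose groups did not overlap, with 27.4, 25.3 and 27.2 CPM in induced pools, against 31.0, 28.7 and 29.2 CPM in controls (-0.13, interval -0.29 to 0.03), as in 15.4% of genes in that direction. The lowest bound of the 10 intervals was -0.38 (Cldn5) and the highest 0.37 (Sox18), and the widest interval was that of Sox7, from -0.31 to 0.34. A fall of the size seen at E7.5 lies outside each of them for the 6 members called there.

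With Nanog at E9.5, 4 members were higher, Cldn5, Tie1, Flt4 and Sox18, and none was lower. Of the 13305 genes tested 28.4% were called, 15.4% higher and 13.0% lower. The median log2 fold change over the members was 0.09, against 0.00 over all genes. Cldn5 had 16.8, 23.6 and 20.4 CPM in induced pools, against 11.3 and 11.3 CPM in controls (0.86 ± 0.15, adjusted p = 0.000583). Tie1 had 40.3, 46.7 and 38.4 CPM in induced pools, against 30.9 and 27.8 CPM in controls (0.52 ± 0.10, adjusted p = 0.00117). Both were called in all 5 fits that left out a pool. One model over all 22 libraries, which shares its estimate of spread with the E7.5 pools, lost Tie1 (adjusted p = 0.324).

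Flt4 had 28.5, 34.5 and 32.1 CPM in induced Nanog E9.5 pools, against 24.7 and 24.1 CPM in controls (0.39 ± 0.10, adjusted p = 0.0096), lost without control 2 (adjusted p = 0.0643) or control 3 (0.0627). Sox18 had 11.3, 13.4 and 7.47 CPM in induced pools, against 7.16 and 6.6 CPM in controls (0.66 ± 0.20, adjusted p = 0.0232). Its call was lost without control 2 (0.0782), control 3 (0.107), induced pool 1 (0.0627) or induced pool 2 (0.144), and in DESeq2 (0.0692). For the 4 genes the induced pools all lay above the controls, as in 26.0% of genes tested.

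Tek, which fell with Nanog at E7.5, was on the other side of its partner Tie1 at E9.5. It had 28.9, 27.3 and 26.8 CPM in induced pools, against 37.5 and 29.5 CPM in controls (-0.26 ± 0.11, adjusted p = 0.0837), below both controls as in 28.9% of genes, and the difference was -0.42 (adjusted p = 0.0247) against control 2 alone and -0.09 (adjusted p = 0.723) against control 3 alone. Per kb, Tie1 stood at 1.45 times Tek in induced pools (1.33 to 1.64), against 0.791 and 0.902 times in controls. The remaining members had small differences: Kdr 0.04 (95% interval -0.11 to 0.20), Flt1 0.02 (-0.19 to 0.23), Cdh5 0.01 (-0.15 to 0.17), Pecam1 0.13 (-0.09 to 0.35) and Sox7 0.04 (-0.30 to 0.38). Red cell markers fell in these pools, to a sum of 1300 to 1760 CPM in induced pools against 4620 to 6080 CPM in controls, with 9 of 11 tested called lower, and their part in the members' values was not tested.

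The Oct4 minus Nanog difference at E9.5 passed for 3 members, all negative, where 13.5% of 14604 genes passed, 7.92% negative and 5.57% positive. Cldn5 differed by -0.99 ± 0.19 (edgeR adjusted p = 0.00132), Tie1 by -0.51 ± 0.13 (adjusted p = 0.0105) and Flt4 by -0.42 ± 0.14 (adjusted p = 0.0493). Flt4 was lost in edgeR with median-of-ratios scaling (adjusted p = 0.0505) or no filter (0.0542), and in DESeq2 (0.125). The edgeR model over all 22 libraries called none of the 3 (adjusted p = 0.0572 for Cldn5, 0.616 for Tie1 and 0.525 for Flt4). The controls of the lines also stood apart for Cldn5, at 15.6, 15.2 and 18.0 CPM in Oct4 line controls and 11.3 and 11.3 CPM in Nanog line controls, a difference that was not tested. Tie1 was lost without Nanog control 3 (adjusted p = 0.0617), and Flt4 without any 1 of 8 pools, Oct4 controls 1 and 3, Oct4 induced 3 and 5, Nanog controls 2 and 3, and Nanog induced 2 and 3 (adjusted p from 0.073 to 0.132).

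The response to each factor also differed between stages (the log2 fold change at E9.5 minus that at E7.5). With Oct4, 6 members passed, all higher at E9.5, where 6.69% of 16359 genes were called, 4.84% higher and 1.85% lower. They were Sox18 by 1.97 ± 0.24, Tie1 by 1.66 ± 0.20, Tek by 1.61 ± 0.14, Cdh5 by 1.54 ± 0.24, Pecam1 by 1.38 ± 0.13 and Cldn5 by 1.35 ± 0.26, with adjusted p from 7.24e-06 (Tek) to 0.00535 (Cldn5). All 6 were called in each of the 12 fits that left out a pool, but Cdh5 was lost in the model over all 22 libraries (adjusted p = 0.074). With Nanog, 4 members passed, where 12.8% of 14897 genes were called, 8.02% higher and 4.79% lower: Tek by 1.89 ± 0.25 (adjusted p = 0.000371), Cldn5 by 1.73 ± 0.37 (0.00879), Flt4 by 1.57 ± 0.30 (0.00482) and Sox7 by 0.97 ± 0.29 (0.0424). Cldn5 was lost without E7.5 control 3 (0.115), and Sox7 without any control of either stage or any induced E9.5 pool (0.0659 to 0.178). Sox7 was lost in DESeq2 (0.0522) and with no filter (0.0586) too. Without induced E7.5 pool 4, Tie1 (1.55, adjusted p = 0.015) and Sox18 (2.01, adjusted p = 0.00662) were called as well. Stage goes with the start of treatment and its route, since the injection was given for E7.5 pools, and for Nanog with the short gene models described above, and these cannot be told apart. The same controls enter this contrast, the inductions and the comparison of stages.

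Genes of the same pathways were counted from 5 lists. In the Oct4 E7.5 induction 21 of their 59 tested genes, or 35.6%, were called, all lower, against 3.91% of all genes called lower. With Oct4 at E7.5, 4 of 8 VEGF and angiopoietin ligands were lower and none higher, with a median log2 fold change of -0.50. They were Angpt1, the ligand of Tek (-2.06 ± 0.26, adjusted p = 0.00241), Vegfc (-1.58 ± 0.22, adjusted p = 0.0032), Pgf and Vegfa. Of 12 transcription factors of vessel and blood progenitors 7 were lower, at a median of -0.99, led by Tal1, a regulator of blood and endothelial precursors (-1.72 ± 0.16, adjusted p = 0.000578), Lmo2, its partner (-1.10 ± 0.11, adjusted p = 0.000929), and the ETS factor Fli1 (-1.10 ± 0.14, adjusted p = 0.0023). Of 12 coreceptors and other receptors 4 were lower, with the neuropilin Nrp1, a VEGF coreceptor (-1.20 ± 0.14, adjusted p = 0.00168), and Acvrl1, an endothelial BMP receptor (-1.62 ± 0.17, adjusted p = 0.00106), among them. The list of other endothelial surface genes and of junction genes, with Ctnna1, Ctnnd1 and Tjp1 among the latter, had 4 of 16 lower. One was Vwf, the carrier of a clotting factor (-1.40 ± 0.18, edgeR adjusted p = 0.00236). Arterial, venous and lymphatic genes had 2 of 11 lower. They were the Notch ligand Dll4 (-2.32 ± 0.29, adjusted p = 0.0021) and the Notch target Hey2 (-1.56 ± 0.21, adjusted p = 0.00299).

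With Nanog at E7.5 the same lists had 2 of 7, 4 of 12, 4 of 12, 0 of 15 and 3 of 11 tested genes lower and none higher. Together that was 13 of 57, or 22.8%, against 4.82% of all genes called lower. Angpt1 (-2.35 ± 0.56, adjusted p = 0.0357) and Vegfa (-0.75 ± 0.12, adjusted p = 0.00746) were the ligands. The progenitor factors were led by Lmo2 (-1.80 ± 0.16, adjusted p = 0.000528) and Mef2c (-2.12 ± 0.21, adjusted p = 0.000907), and the coreceptors by Nrp1 (-1.20 ± 0.15, adjusted p = 0.00285). Notch1 (-1.28 ± 0.11, adjusted p = 0.000528) led the arterial, venous and lymphatic genes. The surface and junction genes, the list nearest to Cdh5 and Pecam1, had a median of -0.01.

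At E9.5 the 5 lists had 5 of 60 tested genes called with Oct4, or 8.33%, near the 9.29% of all genes, and 11 of 58 with Nanog, or 19.0%, against 28.4% of all genes. With Oct4 they were Fli1 (-0.49 ± 0.11, adjusted p = 0.00595), Jam2 (-0.75 ± 0.11, adjusted p = 0.000122), Cd34 (-0.21 ± 0.06, adjusted p = 0.0489) and Notch1 (-0.33 ± 0.06, adjusted p = 0.00283) lower, and Nrp2 higher (0.28 ± 0.04, adjusted p = 0.000309). With Nanog, 2 of 7 ligands, 1 of 11 progenitor factors, 1 of 12 receptors, 2 of 16 surface and junction genes and 2 of 12 arterial, venous and lymphatic genes were higher, and 1 receptor and 2 surface genes lower. Among these were Plxnd1, a semaphorin receptor of endothelium (0.50 ± 0.07, adjusted p = 0.000166), Rasip1, which acts in vessel lumen formation (0.71 ± 0.13, adjusted p = 0.00122), the junction gene Jam2 (-0.65 ± 0.12, adjusted p = 0.00128) and Lyve1, a marker of lymphatic endothelium and some macrophages (2.48 ± 0.36, adjusted p = 0.000181).

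**Figure D5:**
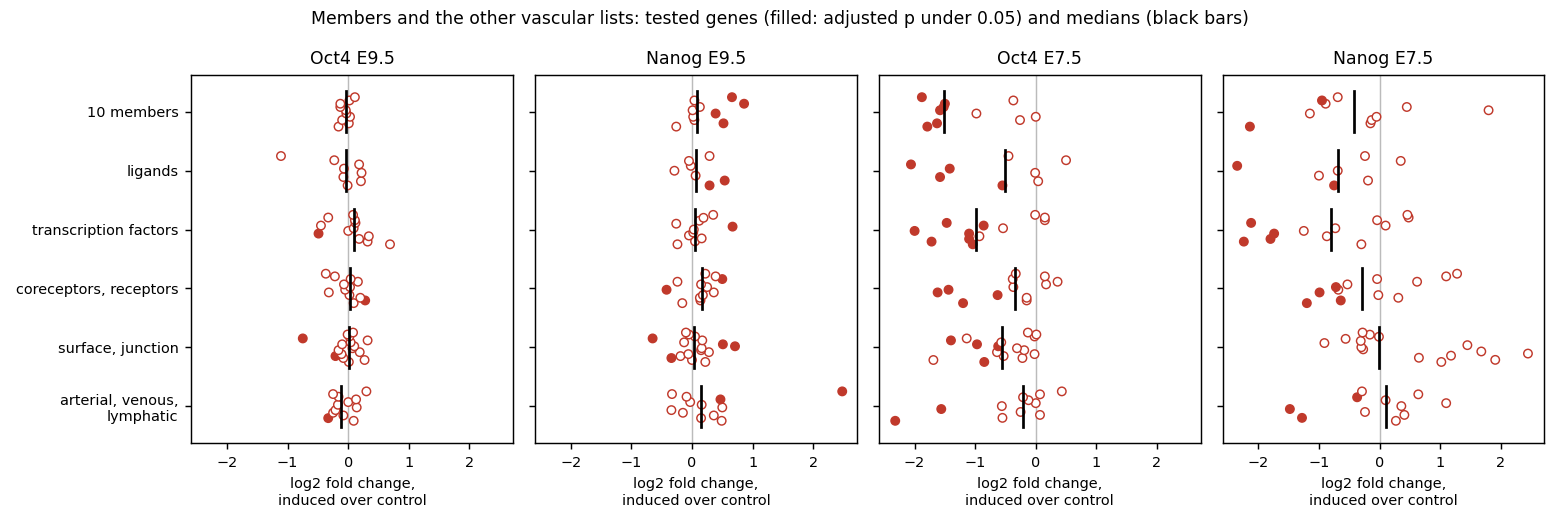
Log2 fold change (induced over control, horizontal axis) of the 10 members and of the tested genes of 5 vascular lists in each induction; filled points passed an adjusted p of 0.05 in edgeR and black bars are medians. In the Oct4 E7.5 panel the members' median lies at -1.51 and the progenitor factors' at -0.99, and the E9.5 panels have medians near 0.

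Markers of other cell types differed at E7.5 as well. Beside them, 3.91% of all genes tested were called lower and 2.25% higher with Oct4, and 4.82% and 2.96% with Nanog. Markers of primitive red cells and megakaryocytes summed to 31.1 to 44.8 CPM in induced Oct4 pools and 124 to 195 CPM in controls, with 9 of 11 tested lower, and to 34.1 to 40.1 CPM in induced Nanog pools and 112 to 163 CPM in controls, with 7 of 12 lower. Trophoblast markers summed to 125 to 212 CPM in induced Oct4 pools and 220 to 305 CPM in controls, with 1 of 6 lower (Hand1, -1.06 ± 0.16, adjusted p = 0.00541). Without Hand1 the trophoblast sums overlapped, at 57.9 to 126 CPM in induced and 69.5 to 158 CPM in control pools, and Elf5 had 33.8, 72.9 and 72.7 CPM in induced pools, against 28.5, 37.9 and 35.6 CPM in controls (0.81 ± 0.28, adjusted p = 0.175). Maternal leukocyte and decidua markers summed to 118 to 150 CPM in induced Oct4 pools and 79.9 to 150 CPM in controls, with 2 of 9 higher (S100a9 and Prf1). Pericyte and smooth muscle markers had 3 of 5 lower with Oct4, led by Rgs5 (-2.12 ± 0.15, adjusted p = 0.000226) and Acta2 (-2.70 ± 0.21, adjusted p = 0.000355), and 1 of 4 lower with Nanog (Pdgfrb, -1.70 ± 0.28, adjusted p = 0.0151). Of 8 mesoderm genes 3 were lower and 2 higher with Oct4, and 3 lower and 1 higher with Nanog. In each induction 6 of the 8 were lower in sign, at a median log2 fold change of -0.34 with Oct4 and -0.6 with Nanog. The list summed to 551 to 600 CPM in induced Oct4 pools and 457 to 484 CPM in controls. In the Nanog line it summed to 361 to 386 CPM in induced pools and 437 to 464 CPM in controls. Mesp1, of nascent mesoderm, went against most of the list. It was higher by 2.47 ± 0.21 with Oct4 (edgeR adjusted p = 0.000414) and by 2.36 ± 0.14 with Nanog (adjusted p = 4.16e-05). In no E7.5 group was a marker at 0 in every pool except Gp9 in Nanog controls. In control pools, trophoblast markers summed to 12.3 to 26.4 CPM at E9.5 and 204 to 322 CPM at E7.5, and maternal markers to 1.86 to 8.91 CPM at E9.5 and 79.9 to 150 CPM at E7.5. How far the RNA of other cell types enters the members' values was not tested.

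Over the 22 libraries, 45 pairs of members had a median Pearson r of 0.73 between their log2(CPM + 1) values, from -0.48 to 0.96; after the mean of each stage was taken away the median was 0.49, from -0.45 to 0.90. These are descriptions over pools that share stage, line and sequencing. Against the mean of the 10 standardized members, Flt4 and Tie1 stood at 0.95, while Flt1 (0.44) and Sox7 (-0.13) were least like it. Of the 14311 genes that averaged 1 CPM or more, the most alike outside the members were Robo2 and Daam2 (0.98 each), Syne1 (0.97), and Parva, Utrn and Lrrc8c (0.96 each). With stage means taken away they were Daam2 (0.96), Robo2 (0.95), Ednra, Cttn and Lix1l (0.92 each) and Kit (0.91).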

How the data were processed

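The authors deposited expected counts per gene, estimated with RSEM 1.17 per the submitters' processing notes. The same notes also name cutadapt, Picard, limma and the mouse build NCBIM37, with no roles. Between 12.8% and 21.4% of values per library were not whole, and counts were rounded. Strand handling is not given in the sources used here, nor which of the sequencers read which library. Of 37680 gene IDs, 37309 had a symbol in the Ensembl annotation of that build. Comparisons were run in R 4.3.3 with edgeR 4.0.16 (glmQLFit and glmQLFTest, its quasi-likelihood test) with TMM scaling and edgeR's own filter on low counts, fitted on the groups of each comparison over all genes that passed. P-values were adjusted by Benjamini-Hochberg over those genes with a threshold of 0.05. A difference of responses was an interaction contrast. Standard errors are the log2 fold change over the square root of F, with 95% intervals. CPM used TMM library sizes over all 22 libraries. Per-kb levels used the length of all annotated exons of a gene, not that of the transcripts expressed, which bears on the order between genes.

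Named by rule were the 10 members in every comparison, Pou5f1 and Nanog, and the 6 genes most like the members by Pearson r. Of each list, the rule took up to 3 genes with the lowest p among those called. Outside that rule, all ligands called with Oct4 at E7.5 were named. So were trophoblast markers that were not called at E7.5. These were Plac1, Ascl2, Hand1 and Gcm1 with Nanog, Elf5 with Oct4, and Prl2c2 and Prl3d1 with both. Gp9 was named for its counts of 0. The members and the 10 lists (105 genes) were chosen with earlier results of these data known. Alternatives were median-of-ratios scaling, DESeq2 1.42.0, limma-voom (limma 3.58.1), no filter, 1 model over all 22 libraries, a replicate block, each pool left out, and plain library totals, the last chosen after seeing the data. The limit that a count of 0 allows, 3 counts, was 0.0756 to 0.597 CPM and covers counting error only. No pair of replicate libraries agreed within sampling noise. Statistics were also run on simulated data with the same dispersion for every gene and group. That does not show how they perform where the spread differs between groups.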

Additional observations from a re-analysis of the deposited data

Results flagged for a closer look

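A test of the difference itself, an interaction contrast in edgeR, found that 14 responses of the members differed between lines or between stages. Between the lines at E7.5, the response of Pecam1 to Oct4 minus that to Nanog was -1.98 on the log2 scale. At E9.5 that difference was -0.99 for Cldn5, -0.51 for Tie1 and -0.42 for Flt4, none of them called in the model over all 22 libraries.

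Between the stages, the Oct4 response at E9.5 minus that at E7.5 was 1.61 for Tek, 1.66 for Tie1, 1.54 for Cdh5, 1.38 for Pecam1, 1.35 for Cldn5 and 1.97 for Sox18. For the Nanog response that difference was 1.89 for Tek, 1.57 for Flt4, 1.73 for Cldn5 and 0.97 for Sox7. The stages differ in the start and route of treatment as well as in age, which cannot be told apart.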

How the results depend on the processing

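Of 140 alternative counts of members called, 127 stayed within 1.5 times the reported count. One model over all 22 libraries called 5 members in place of 2 in the Nanog E7.5 induction, 4 lower and 1 higher. It added Flt4 and Cldn5 as lower and Cdh5 as higher. That model called 1 in place of 4 in the Nanog E9.5 induction, and 0 in place of 3 for Oct4 minus Nanog at E9.5. DESeq2 called 5 in place of 8 in the Nanog line controls, and DESeq2 and the model over all libraries 2 in place of 1 for Oct4 minus Nanog at E7.5. With 1 pool left out the count ran from 5 to 8 in the Oct4 E7.5 induction, 1 to 3 in the Nanog E7.5 induction, 2 to 4 in the Nanog E9.5 induction, 0 to 1 and 1 to 3 for Oct4 minus Nanog at E7.5 and E9.5, and 2 to 6 for the Nanog response between stages. The cause was not tested. Counts over all genes moved more. The model over all libraries gave 1638 against 991 (Oct4 E7.5), 2737 against 1099 (Nanog E7.5), 312 against 1297 (Oct4 E9.5), 1958 against 3772 (Nanog E9.5), 177 against 34 and 229 against 1970 (Oct4 minus Nanog at E7.5 and E9.5). DESeq2 gave 715 (Oct4 E9.5), 2414 (Nanog E9.5) and 244 (Oct4 minus Nanog at E7.5), limma-voom 19 for that contrast, and no filter 56 for it and 1721 for Nanog E7.5. Leaving out a pool gave 438 to 1101 (Oct4 E7.5), 161 to 1383 (Nanog E7.5), 625 to 1290 (Oct4 E9.5), 1482 to 3487 (Nanog E9.5), 16 to 102 and 837 to 2178 (Oct4 minus Nanog at E7.5 and E9.5) and 807 to 2376 (Nanog between stages). Signs turned only for differences that were not called. They were 0 in limma-voom for Flt1 (Oct4 E7.5), Tie1 (Oct4 E9.5) and Sox7 (Oct4 minus Nanog at E9.5), -0.01 for Sox7 (Oct4 E9.5) and 0 for Cdh5 (Nanog E9.5) in the model over all libraries, 0 for Flt1 and -0.01 for Cdh5 (Nanog E9.5) and 0.01 for Sox7 (Oct4 minus Nanog at E9.5) with no filter, and -0.01 for Flt1 in that contrast with plain totals. With a pool left out, Flt1 ran from -0.11 to 0.08 (Oct4 E7.5), -0.16 to 0.11 (Nanog E7.5), -0.01 to 0.08 (Oct4 E9.5), -0.1 to 0.15 (Nanog E9.5), -0.12 to 0.15 and -0.11 to 0.14 (Oct4 minus Nanog at E7.5 and E9.5), and -0.05 to 0.14 and -0.09 to 0.19 (Oct4 and Nanog between stages). Tie1 ran from -0.94 to 0.32 (Nanog E7.5) and -0.04 to 0.08 (Oct4 E9.5), Flt4 from -0.1 to 0.05 (Oct4 E9.5) and -0.01 to 0.48 (Oct4 minus Nanog at E7.5), and Tek from -0.07 to 0.26 (Oct4 minus Nanog at E9.5). Kdr ran from -0.04 to 0.13 (Nanog E9.5), -0.47 to 0.01 (Oct4 minus Nanog at E7.5) and -0.02 to 0.49 (Oct4 between stages). Cdh5 ran from -0.07 to 0 (Oct4 E9.5), -0.04 to 0.06 (Nanog E9.5) and -0.1 to 0 (Oct4 minus Nanog at E9.5), and Sox7 from -0.07 to 0.13 (Oct4 E9.5), -0.09 to 0.17 (Nanog E9.5) and -0.15 to 0.11 (Oct4 minus Nanog at E9.5). With the replicate number as a block, 7 members were called in the Oct4 E7.5 induction (Flt4 added) and 4 in the Nanog E9.5 induction. The block called 9 members in the Oct4 and 8 in the Nanog line controls, and 1287, 3359, 11406 and 9179 genes in all. Same-numbered Oct4 E7.5 pools correlated at 0.29, 0.33 and 0.05 in their deviations from the group means. Pools 1 and 2 set against each other stood at -0.32 and -0.28, and other differently numbered pools between -0.09 and 0.05. Whether the numbers pair the pools was not tested. In the Nanog E7.5 and Oct4 E9.5 inductions no such block was possible, because the groups share only 1 number. Depth limits Cldn5, Sox18 and Tie1 most at E7.5, and groups of 2 controls limit the Nanog line.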
